A study of Mus musculus with 12 samples.

Results

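The genes described here are the transcription factor genes of mouse TAMC cells that remain when the zinc finger genes named Zfp, the Irf and Stat genes and a set of immediate early and inflammatory regulators are set aside. They were selected from the deposited table as protein-coding genes with an entry in its transcription factor class column (tf_family) and a value of 1 or more in 3 or more of the 12 libraries. Fos, Fosb, Jun, Junb, Egr1, Egr2, Egr3, Klf2, Klf6, Atf3, Myc, Xbp1, Ets2, Nfkb1 and Ciita were left out by name. This gave 315 genes out of 11669 in the table, of which 731 were protein-coding with a class and 8615 of any kind passed the same value threshold. Of the 731, 310 lay under the threshold, 149 of them without a name that was left out, and 106 passed it but were left out by name, 79 of them Zfp genes. The rule used levels alone, not the comparisons between groups, and the counts below describe the 315 genes beside all tested genes. They fall into 49 classes, and 20 of these hold at least 5 genes (269 genes together).

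Sequence-specific transcription factors bind short DNA motifs in promoters and enhancers and recruit or block the transcription machinery. Those of the myeloid lineage, such as Spi1 (PU.1) and the C/EBP proteins, set the identity of macrophages and granulocytes, while others act in response to cytokines, lipids, oxygen or stress. Cyclin-dependent kinases (CDKs), which the study's title names as the target of its nanodrug, drive the cell cycle, and some of them act on RNA polymerase II. The class column is wider than the name of the group. It also holds, among others, 16 genes, picked here after their values were seen, whose products are best known for another activity. They are the ceramide synthases Cers2, Cers5 and Cers6, the chaperones Dnajc1 and Dnajc2, the lysosomal proteins Glmp and Borcs8, the corepressor Ncor1, the chromatin remodelling subunits Smarcc1 and Smarcc2, the histone demethylases Kdm5a, Kdm5b and Kdm5c, the histone chaperone subunit Ssrp1, and Litaf and Cdip1.

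The cells are given by the labels as immune cells of the cell line TAMC with marrow as the tissue, kept for 24 h with 1 of 4 treatments, 3 libraries each. These were PBS, the particle NP@M, and its forms NP-D@M and NP-D@MP. The title speaks of a nanodrug coated with an engineered cancer cell membrane, and the labels do not spell out NP, D, M, P or TAMC. PBS and NP@M are the groups without D, NP-D@M and NP-D@MP those with D. NP-D@M against NP@M differs in D, NP-D@MP against NP-D@M in P, NP@M against PBS in the particle without D, and NP-D@MP against PBS in the whole formulation. The extraction protocol in the same records mentions retinas, which goes against the tissue label, and 0 of 8 retina marker genes were in the table, while all 12 macrophage and monocyte markers were. The summed level of the 11 macrophage markers past the value threshold was 2858 to 4187 FPKM in the libraries without D and 31217 to 41885 FPKM with D. On the same deposited scale the 8 neutrophil markers past it summed to 425 to 1250.4 FPKM without D and 999.99 to 2953 with it. The 4 dendritic cell markers past it summed to 78.0 to 111 FPKM without D and 484 to 715 with it. Cd4, the 1 of 6 T and NK cell markers in the table, stood at 0.112 to 0.260 FPKM without D and 2.09 to 3.76 with it, and Itga2b, the 1 of 5 red cell and megakaryocyte markers, at 2.08 to 3.18 FPKM without D and 6.14 to 9.96 with it. The summed endothelial markers (2 of 3 in the table) were 3.79 to 7.80 FPKM without D and 7.15 to 11.1 with it. Of the mast cell and basophil markers, 3 of 4 were in the table and 1 passed the threshold. That one stood at 2.07 to 3.29 FPKM without D and 2.60 to 10.7 with it. Libraries with and without D overlapped in both. All these levels are on the deposited scale, whose library sizes differ between groups with and without D, as given below. They were not taken on the scale of read totals, on which values with D are lower and those without D higher. The part of these differences in the results below was not tested. Ms4a1 (B cells), Epcam (epithelium) and Col1a2 (fibroblasts), the markers of those cells in the table, did not pass the value threshold. Nothing says that libraries of a group came from separate cultures, so the spread behind each p-value is that between libraries and may be technical.

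The promoters of 4 genes are shown first because these genes mark the ends of the result below. Klf13 and Nfil3 were among the steepest falls with D, and Ybx1 and Glmp among the steepest rises. Each sequence is the part of the 250 bases before the gene's start in RefSeq on GRCm38.p6 that lies outside the annotated gene, 5′ to 3′. Capitals mark CCAAT boxes (CCAAT), GC boxes (GGGCGG) and E-boxes (CACGTG) of either strand, and some GC boxes overlap. The windows are chr7:63938916-63939165 on the minus strand for Klf13, chr13:52981074-52981289 on the minus strand for Nfil3, chr4:119294605-119294763 on the minus strand for Ybx1 and chr3:88324773-88325022 on the plus strand for Glmp.
Klf13: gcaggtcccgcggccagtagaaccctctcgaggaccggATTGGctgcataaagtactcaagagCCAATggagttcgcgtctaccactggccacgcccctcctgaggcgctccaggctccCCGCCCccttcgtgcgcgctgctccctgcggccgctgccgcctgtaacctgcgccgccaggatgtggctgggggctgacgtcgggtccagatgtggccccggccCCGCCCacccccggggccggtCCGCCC
Nfil3: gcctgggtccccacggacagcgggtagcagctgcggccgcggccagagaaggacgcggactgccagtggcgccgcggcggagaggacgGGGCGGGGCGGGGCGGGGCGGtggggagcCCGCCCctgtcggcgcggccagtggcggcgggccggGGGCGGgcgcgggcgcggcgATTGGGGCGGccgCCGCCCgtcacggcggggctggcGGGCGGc
Ybx1: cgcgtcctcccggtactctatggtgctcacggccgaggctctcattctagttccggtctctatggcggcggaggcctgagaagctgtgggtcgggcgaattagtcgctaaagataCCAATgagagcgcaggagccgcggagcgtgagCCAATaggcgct
Glmp: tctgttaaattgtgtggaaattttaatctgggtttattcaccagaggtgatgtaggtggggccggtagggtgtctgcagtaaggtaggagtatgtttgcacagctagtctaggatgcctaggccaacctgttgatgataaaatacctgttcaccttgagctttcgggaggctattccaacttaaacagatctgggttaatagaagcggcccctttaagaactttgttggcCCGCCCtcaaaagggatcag
The Klf13 window held 2 CCAAT boxes and 3 GC boxes, and the Nfil3 window, of 216 bases, 1 and 9. The Ybx1 window, of 159 bases, held 2 CCAAT boxes and 0 GC boxes, and the Glmp window 0 and 1. None of the 4 held an E-box. CpG pairs numbered 24, 37, 16 and 4 in the order shown.

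Values are FPKM (fragments scaled to gene length and library size) on the deposited scale, and log2 fold changes are differences of log2(FPKM + 1) between group means. The added 1 understates the change of genes with low values. Reads recovered from the table numbered 14444950 to 17338264 per library. The deposited values had been divided by library sizes 2.19 to 2.36 times those reads without D and 0.468 to 0.553 times with D. Dividing by the recovered reads instead moves the median of all tested genes in NP-D@M against NP@M from 0.16 to -1.47, so changes are read below against that median, and values on the scale of read totals stand beside those of genes that rose. Few genes in the table lie near 0 in the comparisons with D: 3.84% of all tested genes and 1.90% of the 315 were within 0.4 of 0 in NP-D@M against NP@M. Among the libraries without D, 2 stood apart, PBS replicate 3 and NP@M replicate 2, with 9.31% and 9.11% of the table's genes at 0 where the 4 others had at most 2.96%.

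The 2 comparisons without a difference in D called 0 of the 315 genes (limma, Benjamini-Hochberg adjusted p under 0.05). In NP@M against PBS, 0.0116% of all tested genes were called higher and 0.0% lower. At an unadjusted p under 0.05 there were 0 of the 315 and 27 of all tested genes, and voom in limma on the recovered reads called 0. The 27 are 0.313% of all tested genes, fewer than a p under 0.05 gives with no difference at all. Both libraries that stood apart lie in these groups. The comparison could hardly call a gene, and the lack of calls does not show equal levels. The median log2 fold change of the 315 was 0.02, and their values ranged from -0.29 for Gm14410 to 0.41 for Cebpe. In NP-D@MP against NP-D@M, 0.0% of all tested genes were called higher and 0.0% lower. There, 7 of the 315 (2.22%) and 428 of all tested genes (4.97%) had an unadjusted p under 0.05, the median of the 315 was 0.04, and voom called 0.

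E2f5, a member of the E2F family of cell cycle regulators, had the smallest adjusted p in NP-D@MP against NP-D@M. It stood at 4.61, 3.65 and 4.55 FPKM with NP-D@M and 3.21, 0.758 and 1.498 FPKM with NP-D@MP, where replicate 1 lay near the other group and the 2 others far below. The log2 fold change was -0.99 (adjusted p = 0.541 by limma, SE 0.28). Mbd3, a subunit of the NuRD chromatin complex, stood at 66.1, 81.2 and 72.6 FPKM with NP-D@M and 111, 117 and 153 FPKM with NP-D@MP. These groups did not overlap, and the log2 fold change of 0.78 (adjusted p = 0.997 by limma, SE 0.35) was not called.

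With D, most of the genes fell. In NP-D@M against NP@M, 259 of the 315 genes were called lower, against 46.0% of all tested genes, and 40 were called higher, against 45.2%. As shares of the 315 these are 82.2% and 12.7%. In NP-D@MP against PBS, which shares no library with the first comparison, 257 were called lower, against 45.8% of all tested genes, and 42 higher, against 45.7%. The median log2 fold change of the 315 was -1.35 in NP-D@M against NP@M, where that of all tested genes was 0.16. In NP-D@MP against PBS the medians were -1.32 and 0.13. A filter on low values that a gene may pass through 1 side alone favours differences, and 203 of the 315 passed it through the libraries without D alone, 12 through those with D alone. With the filter set on the mean of all 12 libraries (at least 5 FPKM), which leaves 78 of the 315, 45 were called lower and 23 higher in NP-D@M against NP@M. These are 57.7% and 29.5%, beside 22.4% and 70.0% of all genes past that filter, and the medians were -1.14 and 1.59. A mean over 12 libraries can also be reached through 1 side alone, so this filter does not settle how much such selection adds.

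Across the 2 comparisons, 255 of the 315 were called lower in both (81.0%, against 44.1% of all tested genes) and 36 higher in both (11.4%, against 42.7%). Of the rest, 16 were called in 1 alone, 8 in neither, and 0 in opposite directions, beside 3 of all tested genes. All 6 libraries with D lay below all 6 without for 236 of the 315 genes (74.9%, against 42.3% of all tested genes). They lay above for 37 (11.7%, against 40.9%). On the scale of read totals, 282 of the 315 were called lower in NP-D@M against NP@M (61.7% of all tested genes) and 6 higher (9.12%). In NP-D@MP against PBS these were 280 (62.4%) and 6 (9.01%). Of the genes called higher on the deposited scale, 22 of 40 and 23 of 42 had a negative log2 fold change with read totals, in the same order. The median of the 315 lay below that of all tested genes by 1.51 on the deposited scale and by 1.08 on that of read totals in NP-D@M against NP@M.

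**Figure D1:**
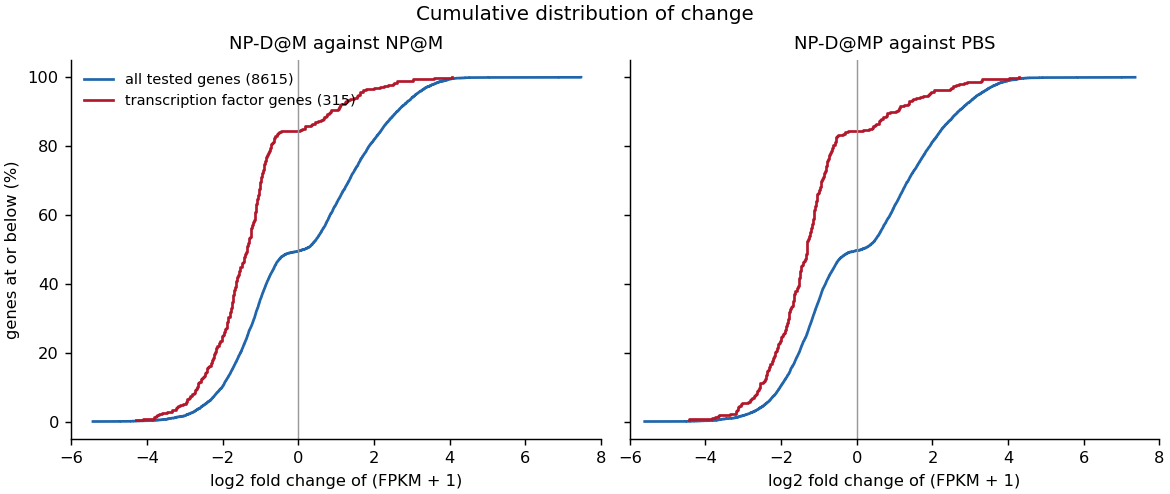
Cumulative share of genes (%) against log2 fold change of (FPKM + 1) for the 315 transcription factor genes (red) and all 8615 tested genes (blue), in NP-D@M against NP@M (left) and NP-D@MP against PBS (right). The red curve rises before 0 and holds 84.4% of its genes below 0 in NP-D@M against NP@M, against 49.5% of all tested genes.

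A measure free of any factor between libraries is the share of a library's recovered reads that the 315 genes held. It was 2.56% ± 0.171 with PBS and 2.62% ± 0.0598 with NP@M (SD, n = 3). With D it was 0.556% ± 0.0587 with NP-D@M and 0.628% ± 0.0855 with NP-D@MP. The ranges do not overlap: the lowest library without D held 2.38% and the highest with D 0.719%. Ybx1 alone made up 0.158% ± 0.0454 of the reads with NP-D@M, against 0.0522% ± 0.0338 with NP@M. Without it the other 314 genes went from 2.57% ± 0.0403 to 0.398% ± 0.0138. Of the 315, 203 passed the value threshold through the libraries without D alone and 12 through those with D alone. This selection favours a lower share with D, and how much it adds was not tested. A share also depends on the other genes of a library. The 10 genes with the most reads in each library held 10.1% to 12.4% of its reads without D and 33.5% to 35.4% with D. In bulk RNA, fewer cells of a type and less RNA per cell cannot be told apart.

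Among the 20 classes with at least 5 genes, every class median lay below the median of all tested genes in both comparisons with D, but the distance differed. The zf-GATA, bHLH and Rel homology (RHD) classes lay farthest below in NP-D@M against NP@M, by 2.37, 2.12 and 2.02 on the log2 scale. The E2F, SAND and homeobox classes lay nearest, by 0.38, 0.83 and 0.98. In NP-D@MP against PBS zf-GATA, bHLH, zf-MIZ and RHD lay farthest below, by 2.22, 2.0, 1.95 and 1.89, and E2F was again nearest, by 0.58. On the scale of read totals the E2F median lay 0.06 below that of all tested genes in NP-D@M against NP@M, and zf-GATA, bHLH and RHD 1.89, 1.71 and 1.71 below. The added 1 compresses classes of low level, so the order of classes is not one of fold: with 0.1 in its place the zf-MIZ, ETS, ARID and zf-C2H2 classes lay 3.77, 3.82, 3.8 and 3.67 below, farther than zf-GATA at 3.12.

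**Figure D2:**
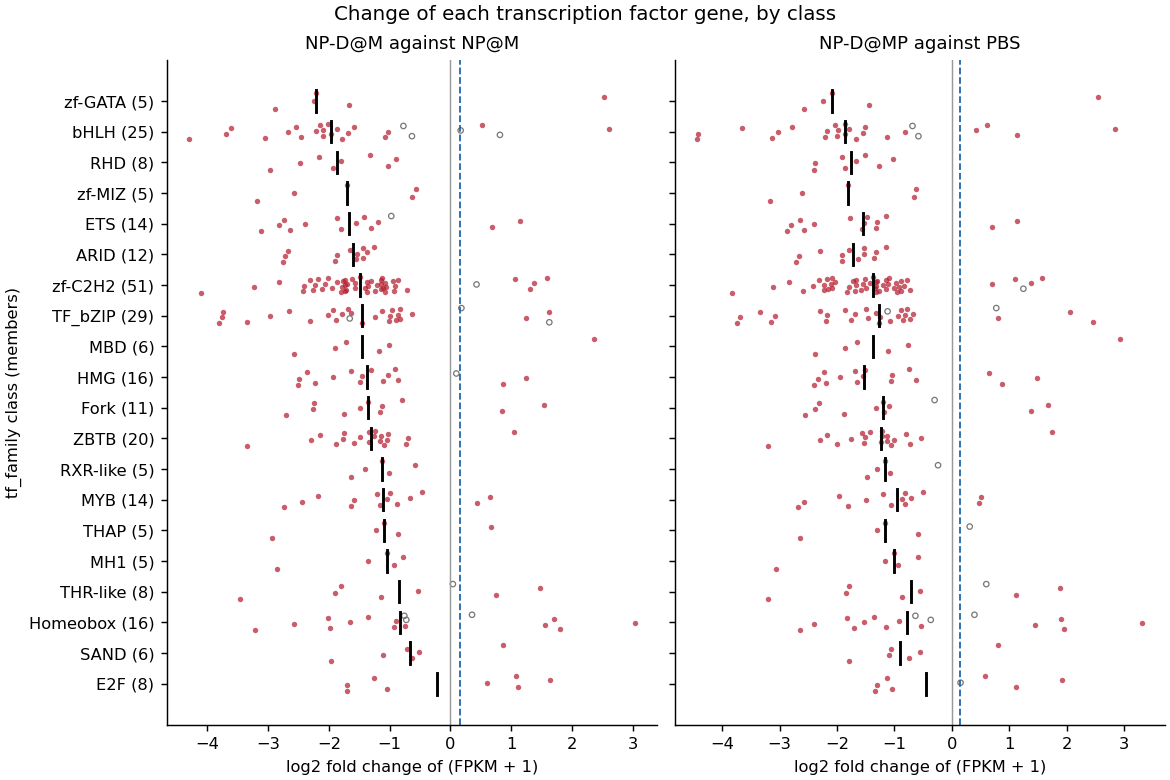
Log2 fold change of (FPKM + 1) of each gene in the 20 tf_family classes with at least 5 genes, in NP-D@M against NP@M (left) and NP-D@MP against PBS (right). Filled points passed the test, open points did not, black bars are class medians and the dashed line is the median of all tested genes. All 20 bars lie left of that line, E2F nearest to it.

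Members of the ARID class, DNA-binding subunits of chromatin remodellers and related proteins, were called lower in 12 of 12 cases in NP-D@M against NP@M and in 12 of 12 in NP-D@MP against PBS. The 8 RHD genes, which include the NF-kB and NFAT subunits, were all called lower in both, as were the 5 zf-MIZ and the 5 MH1 (SMAD) genes. The zf-C2H2 class, which holds the Klf, Sp, Zscan and Zkscan genes, had 46 lower and 4 higher of 51 in NP-D@M against NP@M. ZBTB genes, which join a zinc finger region to a protein interaction domain, had 19 lower and 1 higher of 20. Basic leucine zipper genes (TF_bZIP) had 24 lower and 2 higher of 29, and bHLH genes 19 and 2 of 25. The E2F class had 4 lower and 4 higher of 8 in NP-D@M against NP@M, near the 46.0% and 45.2% of all tested genes, and 4 and 3 in NP-D@MP against PBS. Homeobox genes had 9 lower and 4 higher of 16, and 2 of the 4 higher were the ceramide synthases Cers2 and Cers5. On the scale of read totals the E2F class had 6 lower and 0 higher, and the homeobox class 12 and 1, in NP-D@M against NP@M.

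Several abundant genes of the chromatin-linked classes fell. Arid3a, an AT-rich DNA-binding factor of the ARID class, stood at 14.8, 17.5 and 15.3 FPKM with NP@M and 0.915, 2.16 and 2.03 with NP-D@M, and at 14.7, 16.9 and 16.7 with PBS and 3.08, 2.10 and 2.31 with NP-D@MP. Its groups did not overlap in either comparison, and the log2 fold changes were -2.68 (adjusted p = 6.14e-07, SE 0.21) and -2.29 (adjusted p = 1.72e-06, SE 0.21) by limma. Mta2, a subunit of the NuRD deacetylase complex in the zf-GATA class, went from 21.6, 22.4 and 21.9 FPKM with NP@M to 4.10, 3.65 and 3.86 with NP-D@M, a log2 fold change of -2.24. Zmiz1, a zf-MIZ coactivator and SUMO ligase, went from 9.78, 12.8 and 11.9 to 0.259, 0.397 and 0.432 FPKM, a log2 fold change of -3.19. Its class mate Pias4, a SUMO ligase that restrains STAT factors, went from 9.14, 3.89 and 8.87 to 0.626, 0.104 and 0.275 FPKM, a log2 fold change of -2.58. In the MBD class, named for the methyl-CpG binding domain, Baz2a went from 6.13, 11.9 and 6.90 to 0.507, 0.499 and 0.515 FPKM, a log2 fold change of -2.58, while Mbd3 rose.

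Other classes held an exception or 2 among falling members. In the HMG class, 13 of 16 were called lower and 2 higher (Hmg20b and Ssrp1, at -0.67 and -1.22 with read totals) in NP-D@M against NP@M. Cic (Capicua), a repressor released by receptor signalling, was at 12.5, 9.36 and 13.9 FPKM with NP@M and 9.23, 14.1 and 15.6 with NP-D@M, which overlapped. Cic was called higher in NP-D@MP against PBS, from 12.9, 14.4 and 8.28 FPKM with PBS to 21.6, 15.5 and 19.2 with NP-D@MP, but with read totals it had -1.45. The MYB class had 12 of 14 lower and 2 higher (Dnajc1 and Smarcc2, at -0.86 and -1.62 with read totals). Rcor1, the corepressor CoREST, stood at 6.36, 11.2 and 7.24 FPKM with NP@M and 0.387, 0.337 and 0.357 with NP-D@M. In the SAND class 5 of 6 were lower and Sp110 was higher, turning to -0.7 with read totals. Sp110 and its relative Sp140 are interferon-induced nuclear body proteins. The THAP class had 4 of 5 lower and Thap12 higher, at 3.41, 3.90 and 3.39 FPKM with NP@M and 5.58, 6.15 and 7.08 with NP-D@M, and at a log2 fold change of -1.13 with read totals. Maz, a zinc finger factor of GC-rich promoters, was called in neither comparison with D, at 25.6, 7.66 and 23.9 FPKM with NP@M and 20.7, 23.6 and 25.4 with NP-D@M, a spread set by NP@M replicate 2.

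Bhlhe40 (DEC1), a bHLH repressor of the clock and of macrophage cytokine responses, had the largest fall in log2(FPKM + 1) in both comparisons with D, while Klf13 fell further by the ratio of mean FPKM. Its gene lies on chromosome 6, 108660629 to 108666925 of GRCm38. It stood at 51.9, 55.1 and 47.0 FPKM with PBS and 52.1, 57.1 and 59.0 FPKM with NP@M, and at 2.21, 1.79 and 1.72 FPKM with NP-D@M and 1.48, 1.10 and 1.70 FPKM with NP-D@MP. The 6 libraries with D lay far below the other 6, and replicates were close together in each group. The log2 fold change was -4.30 (adjusted p = 4.88e-08, SE 0.16) in NP-D@M against NP@M and -4.44 (adjusted p = 4.21e-08, SE 0.16) in NP-D@MP against PBS, both by limma.

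Klf13, a Krüppel-like zinc finger factor, stood at 17.4, 20.7 and 18.5 FPKM with NP@M and 0.0461, 0.203 and 0.225 FPKM with NP-D@M, and at 18.3, 20.8 and 16.6 FPKM with PBS and 0.289, 0.228 and 0.641 FPKM with NP-D@MP. All 6 libraries with D were under 1 FPKM, and the log2 fold changes were -4.10 (adjusted p = 5.29e-08, SE 0.16) and -3.83 (adjusted p = 7.62e-08, SE 0.16) by limma. Nfil3, a bZIP repressor with roles in the clock and in immune cells, went from 38.0, 29.6 and 41.8 FPKM to 1.94, 1.57 and 1.84 FPKM with NP-D@M and from 43.9, 40.2 and 25.8 FPKM to 2.37, 1.39 and 1.57 FPKM with NP-D@MP, with no overlap between groups (log2 fold change -3.74 and -3.74). Id2, which binds bHLH proteins and keeps them off DNA, went from 42.7, 41.9 and 46.4 FPKM to 3.51, 2.41 and 2.13 FPKM, and from 44.8, 44.2 and 65.2 FPKM to 0.563, 1.41 and 2.66 FPKM (log2 fold change -3.62 and -4.43). Mxd1, a MAX partner that represses genes activated by MYC, had log2 fold changes of -3.69 and -3.65, and Fosl2, a FOS family member of AP-1, -3.75 and -3.34. These 4 genes were called in both comparisons.

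**Figure D3:**
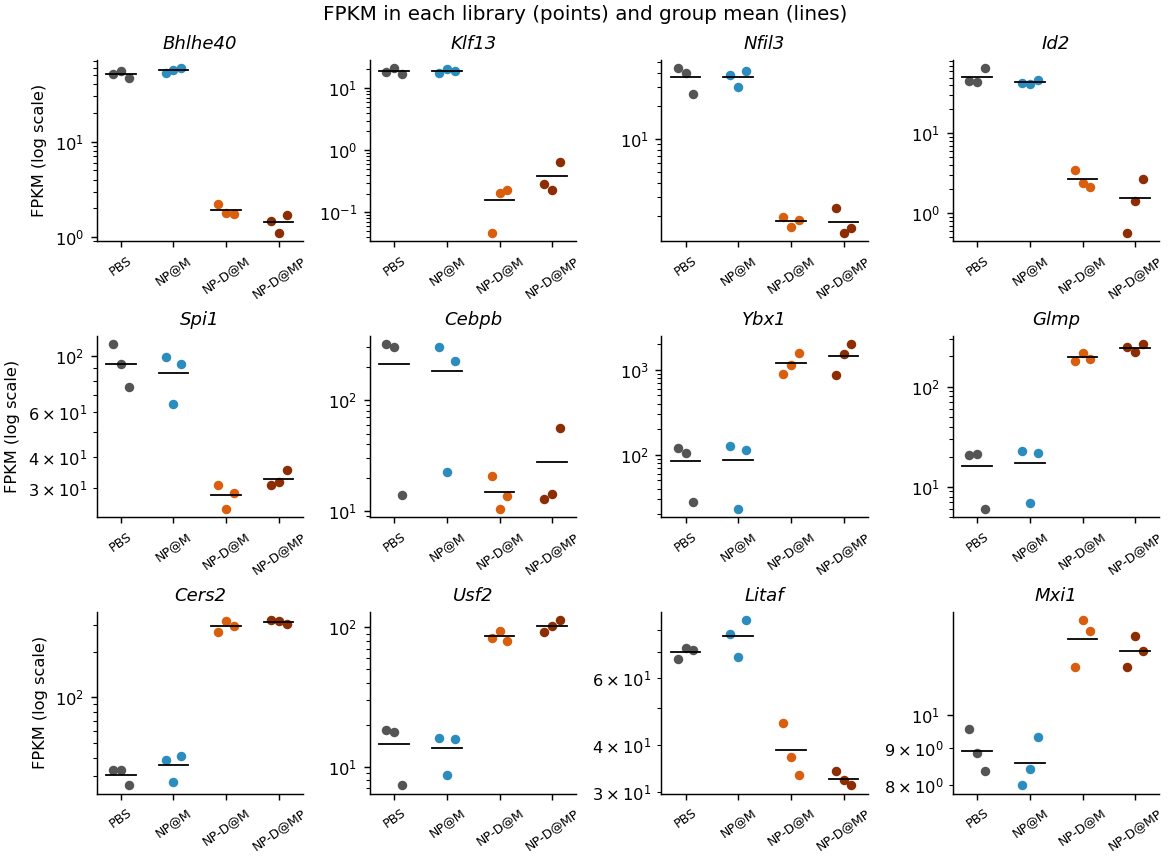
FPKM of 12 genes in each of the 12 libraries (points, log scale, a separate scale for each gene) with group means (lines). Bhlhe40, Klf13, Nfil3 and Id2 are lower in all 6 libraries with D, Ybx1, Glmp, Cers2 and Usf2 higher, and Cebpb overlaps because of 1 low library with PBS and 1 with NP@M.

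Of the myeloid lineage factors, 28 of the 40 listed were among the 315. 27 of them were called lower and 0 higher in NP-D@M against NP@M, and 26 and 1 in NP-D@MP against PBS, with median log2 fold changes of -2.06 and -2.02. Spi1, which encodes the master regulator PU.1, stood at 111, 93.1 and 75.3 FPKM with PBS, 99.2, 64.6 and 93.4 with NP@M, 30.8, 24.8 and 28.8 with NP-D@M and 30.9, 31.8 and 35.3 with NP-D@MP. It fell less than the list's median, with log2 fold changes of -1.55 (adjusted p = 3.98e-05, SE 0.21) and -1.47 (adjusted p = 6.09e-05, SE 0.21) by limma, and remained among the most abundant factors, at rank 15 to 18 of the 315 in libraries with D. Ikzf1 (Ikaros), a lymphoid and myeloid regulator, had means of 14.8 ± 3.62 FPKM with NP@M and 1.95 ± 0.452 with NP-D@M (SD, n = 3), and its log2 fold change was -2.41. Elf4, Etv6, Fli1 and Runx3 were also called lower in both, at means of 15.3, 7.86, 6.95 and 7.92 FPKM with NP@M and 0.818, 0.416, 0.186 and 0.656 FPKM with NP-D@M, and are named after their values were seen. Batf2 was the member called higher in NP-D@MP against PBS, at 0.599, 0.811 and 0.226 FPKM with PBS and 1.32, 1.46 and 2.37 with NP-D@MP, and with read totals it had -0.27.

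The C/EBP genes varied widely within the groups without D. Cebpb, the most abundant of the 315 with PBS and a regulator of inflammatory and granulocyte genes, stood at 319.9, 302 and 14.0 FPKM with PBS, 300.2, 22.3 and 227 with NP@M, 20.8, 10.3 and 13.5 with NP-D@M and 12.9, 14.1 and 55.6 with NP-D@MP. PBS replicate 3 and NP@M replicate 2, the libraries that stood apart, lay within the range of the libraries with D. Its log2 fold change was -2.93 (adjusted p = 0.0379, SE 1.21) in NP-D@M against NP@M and -2.32 (adjusted p = 0.0874, SE 1.21) in NP-D@MP against PBS by limma, and 20.7% of its exonic bases overlap Tmem189. With any 1 of NP-D@M replicates 1 to 3 or NP@M replicates 1 and 3 left out, the first value lay between -3.19 and -2.25 and was not called. Without both libraries that stood apart the values were -4.10 and -3.77, both called. Cebpe, which drives late granulocyte maturation, stood at 38.1, 8.70 and 33.2 FPKM with NP@M and 0.653, 0.308 and 1.09 with NP-D@M, without overlap and with a log2 fold change of -3.83 (adjusted p = 0.00163, SE 0.87) by limma. PBS replicate 3, at 2.27 FPKM, lay within the range of the NP-D@MP libraries in Cebpe, 1.09 to 3.48 FPKM. Among the 126 of the 315 genes with a PBS mean of at least 5 FPKM, 36 were at least 2-fold lower in PBS replicate 3 than in its group mates and 7 at least 2-fold higher, on the scale of FPKM + 1. The lower ones had a median GC content of 60.5% in their transcripts and the rest 50.6%. For NP@M replicate 2 these were 30 and 4 of 125, with median GC contents of 61.0% and 51.5%. Among all genes at that level, 850 of 3613 were lower and 328 higher in PBS replicate 3, with median GC contents of 56.4% and 50.4%. In NP@M replicate 2, 584 of 3537 were lower and 162 higher, with 56.2% and 51.0%. The part of GC content in the D results was not tested.

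Of the stem and progenitor factors, 7 of 24 were members, and 6 were called lower in both comparisons. Nfe2, a bZIP factor of megakaryocytes and red cell precursors, stood at 18.4, 10.6 and 19.2 FPKM with NP@M and 0.155, 0.384 and 0.0377 with NP-D@M (log2 fold change -3.81). Gata2, a factor of progenitors and mast cells, stood at 10.1, 5.06 and 9.14 FPKM with NP@M and 0.193, 0.189 and 0.167 with NP-D@M (log2 fold change -2.89). Lyl1, a bHLH factor of progenitors, was lowest in the libraries that stood apart within both groups without D. It had log2 fold changes of -2.21 (adjusted p = 0.00733, SE 0.65) and -1.66 (adjusted p = 0.0293, SE 0.65) by limma, and with any 1 of NP-D@MP replicates 1 to 3 or PBS replicates 1 and 2 left out, the second lay between -1.71 and -1.18 and was not called.

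All 8 Rel and NFAT genes were called lower in both comparisons, with medians of -1.86 and -1.76. Rela, the p65 subunit of NF-kB, went from 27.5, 11.5 and 28.8 FPKM with NP@M to 1.41, 2.11 and 1.99 with NP-D@M, with a log2 fold change of -2.96 (adjusted p = 0.000109, SE 0.46) by limma. Nfkb2, the precursor of its p52 subunit, was the most abundant of the 8 with NP-D@M. It stood at 26.8, 15.2 and 25.5 FPKM with NP@M and 16.2, 6.44 and 10.01 with NP-D@M, where NP-D@M replicate 1 lay above NP@M replicate 2, with a log2 fold change of -1.03 (adjusted p = 0.0154, SE 0.35) by limma. The Nfkb2 call was lost when NP-D@M replicate 2 was left out (-0.73), and likewise for replicate 1 (-0.89) and replicate 3 (-0.92) of NP@M. All 11 KLF and SP genes were called lower in both, Sp1, a broadly used GC box factor, from 4.47, 13.0 and 5.74 FPKM with NP@M to 0.126, 0.170 and 0.109 with NP-D@M. Klf11 had 0 reads in all 6 libraries with D. Against a floor of 3 reads per library it was at least 25.1-fold lower in NP-D@M against NP@M and at least 20.4-fold lower in NP-D@MP against PBS. Gfi1b, a repressor of the red cell and platelet lineages, also had 0 reads there and was at least 8.67-fold and at least 7.51-fold lower, and both are named after their values were seen.

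Of the NRF2, BACH and small MAF factors, which govern antioxidant and haem genes, all 4 members were called lower in both. Bach1, the haem-sensing repressor, went from 5.61, 11.5 and 6.91 FPKM with NP@M to 0.0187, 0.206 and 0.0912 with NP-D@M (log2 fold change -2.98). Nfe2l2, which encodes the activator NRF2, went from 17.2, 19.7 and 19.1 to 4.14, 3.59 and 4.84 FPKM (log2 fold change -1.93). All 5 SMAD genes among the 315 were called lower in both, Smad4, the partner shared by the receptor-bound SMADs, from 8.51, 15.4 and 10.02 FPKM with NP@M to 0.654, 0.893 and 0.455 with NP-D@M (log2 fold change -2.85). Trp53, which encodes p53, went from 13.0, 6.30 and 13.6 FPKM to 2.66, 2.21 and 1.98 FPKM (log2 fold change -1.80), and Arnt, the partner of the hypoxia factors, from 3.73, 4.83 and 4.49 FPKM to 0.766, 0.812 and 0.450 FPKM (log2 fold change -1.68).

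Of the CREB and ATF factors, 13 of 16 were called lower and 1 higher in NP-D@M against NP@M, and in NP-D@MP against PBS 13 and 2. Atf4, the effector of the integrated stress response, stood at 110.5, 100.5 and 27.1 FPKM with PBS, 110.5, 36.1 and 108 with NP@M, 8.83, 5.25 and 6.02 with NP-D@M and 4.66, 7.08 and 9.06 with NP-D@MP. Every library with D lay below every library without, those that stood apart included, with log2 fold changes of -3.34 (adjusted p = 0.000166, SE 0.55) and -3.14 (adjusted p = 0.000253, SE 0.55) by limma. Atf5, its close relative, stood at 87.1, 85.5 and 5.90 FPKM with PBS, 81.7, 10.9 and 74.4 with NP@M, 118, 150.5 and 121 with NP-D@M and 198, 176 and 246 with NP-D@MP. Its libraries with D lay above those without, but it was called in NP-D@MP against PBS alone, with a log2 fold change of 2.46 (adjusted p = 0.0266, SE 0.93) by limma, and NP-D@M against NP@M gave 1.63 (adjusted p = 0.114, SE 0.93). On the scale of read totals Atf5 had -0.50 and 0.27 and was called in neither. The call in NP-D@MP against PBS was lost without PBS replicate 3 (1.24), NP-D@MP replicate 1 (2.48) or NP-D@MP replicate 3 (2.32). Without both libraries that stood apart Atf5 had 0.72 and 1.24, both called.

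Nuclear receptors, which are activated by lipids, hormones and vitamins, mostly fell. Of 16 among the 315, 12 were called lower and 2 higher in NP-D@M against NP@M, beside 82.2% and 12.7% of all 315 genes. In NP-D@MP against PBS these were 11 and 2, beside 81.6% and 13.3%. Rara, a retinoic acid receptor, stood at 23.7, 20.8 and 9.31 FPKM with PBS and 0.707, 0.844 and 1.25 with NP-D@MP, with a log2 fold change of -3.20 (adjusted p = 1.19e-05, SE 0.37) by limma. Thra, a thyroid hormone receptor, stood at 2.96, 2.73 and 1.51 FPKM with PBS and 10.3, 9.79 and 14.2 with NP-D@MP, and was called higher, with a log2 fold change of 1.88 (adjusted p = 6.88e-06, SE 0.20) by limma and 0.03 with read totals. Rxra, the shared partner of many nuclear receptors, had 14.6, 14.2 and 14.2 FPKM with NP@M and 8.45, 9.83 and 9.66 with NP-D@M, and was called lower in this comparison with a log2 fold change of -0.57, but not in NP-D@MP against PBS. Nr1h2, an oxysterol receptor (LXR beta), was called in neither, at 20.9, 5.92 and 20.4 FPKM with NP@M and 14.97, 14.2 and 13.6 with NP-D@M, a range set by NP@M replicate 2. Ahr, Nr3c1 (the glucocorticoid receptor) and Vdr, named after their values were seen, were called lower in both, at means of 9.89, 5.49 and 3.37 FPKM with NP@M and 0.236, 0.204 and 0.257 with NP-D@M.

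Among the MiT/TFE and sterol factors, lysosome and lipid regulators with their E-box relatives, 11 of 14 were called lower and 2 higher in NP-D@M against NP@M. Srebf2, the regulator of cholesterol synthesis, stood at 9.54, 10.2 and 10.3 FPKM with NP@M and 9.58, 11.8 and 13.0 with NP-D@M, groups that overlapped and were not called apart. It was called higher in NP-D@MP against PBS, from 9.37, 10.6 and 7.62 FPKM with PBS to 14.4, 13.9 and 15.2 with NP-D@MP, but had -1.44 with read totals. Forkhead genes had 9 lower and 1 higher of 10 in NP-D@M against NP@M, and the higher one was Foxo4, which had -0.87 with read totals. E2F genes and their partners, which time the entry into S phase, had 6 lower and 4 higher of 10 in NP-D@M against NP@M and 5 and 3 in NP-D@MP against PBS. E2f1, an activator, went from 5.30, 3.43 and 4.45 FPKM with NP@M to 16.1, 14.6 and 16.3 with NP-D@M (log2 fold change 1.64, and -0.28 with read totals). Tfdp1, the dimer partner of E2F proteins, went from 9.31, 9.78 and 9.83 to 18.8, 24.98 and 21.4 FPKM (log2 fold change 1.09, and -0.94 with read totals). E2f4, a repressor of resting cells, went from 14.4, 9.81 and 15.8 to 3.82, 3.43 and 2.85 FPKM (log2 fold change -1.69). All 4 clock genes among the 315 (Bhlhe40, Bhlhe41, Nfil3 and Tef) were called lower in both. The Notch and TCF list had 2 lower (Tcf7l2 and Rbpj) and 0 higher of 4 in NP-D@M against NP@M, and Tcf3 (E2A) was called higher in NP-D@MP against PBS, at 9.52, 9.79 and 2.58 FPKM with PBS and 15.9, 12.6 and 17.7 with NP-D@MP, and at -0.88 with read totals. Of the heat shock factors only Hsf4 was a member, at 0.531, 0.569 and 0.216 FPKM with PBS and 2.61, 2.17 and 1.23 with NP-D@MP, and it was called higher in NP-D@MP against PBS alone, with -0.01 on the scale of read totals.

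The genes called higher with D were few and led by abundant ones. Ybx1 (YB-1), a cold shock domain protein that binds DNA and mRNA, lies on chromosome 4, 119277981 to 119294604. It stood at 119.5, 104 and 27.8 FPKM with PBS, 127, 22.9 and 114 with NP@M, 889, 1141 and 1570.5 with NP-D@M and 873, 1535 and 1999 with NP-D@MP. All libraries with D lay above all without, and replicates with D were spread widely, with log2 fold changes of 4.05 (adjusted p = 0.000205, SE 0.68) and 4.28 (adjusted p = 0.000135, SE 0.68) by limma. Its log2 fold change with read totals was 1.90 (adjusted p = 0.0330 by limma) in NP-D@M against NP@M and 2.06 (adjusted p = 0.0227 by limma) in NP-D@MP against PBS. With quantile normalization Ybx1 was not called, at 1.56 and 1.68. Ybx3, its relative, went from 26.3, 8.49 and 24.8 FPKM with NP@M to 95.2, 106 and 118 with NP-D@M (log2 fold change 2.51, and 0.40 with read totals).

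Cers2, the ceramide synthase of very long chains that the table places in the homeobox class, stood at 38.3, 27.8 and 41.1 FPKM with NP@M and 272, 322 and 296 with NP-D@M, and at 33.3, 33.1 and 26.2 with PBS and 322, 317 and 306 with NP-D@MP. Its replicates lay close together in every group, with log2 fold changes of 3.03 (adjusted p = 1.72e-07, SE 0.19) and 3.32 (adjusted p = 1.06e-07, SE 0.19) by limma, and the gene was called higher with read totals too, at 0.90 and 1.11. Glmp, a lysosomal membrane glycoprotein, went from 22.9, 6.86 and 22.0 FPKM with NP@M to 182, 217 and 189 with NP-D@M, with a log2 fold change of 3.59 (adjusted p = 3.81e-05, SE 0.48) by limma and 1.49 with read totals, and 20.3% of its exonic bases overlap Tmem79. Usf2, an E-box factor, went from 16.1, 8.75 and 15.8 to 83.9, 93.9 and 79.7 FPKM, with a log2 fold change of 2.62 (adjusted p = 1.91e-05, SE 0.32) by limma, and with read totals it had 0.53 (adjusted p = 0.202 by limma). Gatad1, a chromatin reader subunit, went from 9.34, 3.07 and 8.11 to 33.4, 45.0 and 45.5 FPKM (log2 fold change 2.53, and 0.52 with read totals). Mbd3 went from 16.9, 7.80 and 17.6 to 66.1, 81.2 and 72.6 FPKM (log2 fold change 2.37, and 0.28 with read totals). Hmga1 and Hmga1b, AT-hook proteins, are near-identical copies between which reads cannot be assigned with certainty. Hmga1 had means of 30.7 ± 16.9 FPKM with NP@M and 110.4 ± 17.9 with NP-D@M, and Hmga1b had means of 49.3 ± 33.8 FPKM with NP@M and 233 ± 15.2 with NP-D@M (SD, n = 3). With read totals their log2 fold changes were -0.13 and 0.48.

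Genes called higher with read totals in both comparisons numbered 5: Ybx1, Cers2, Glmp, Gm5294 and Gm14326. The last, a zinc finger gene of a family of near-identical copies on chromosome 2 that share reads, is uncertain, and Gm5294, a forkhead gene, was at 0, 0.0806 and 0 FPKM with PBS and 2.64, 1.89 and 2.34 with NP-D@MP. These 2 are named after their values were seen. Of the 16 genes known for another activity, 7 were called higher and 8 lower in NP-D@M against NP@M, shares close to the 45.2% and 46.0% of all tested genes.

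Ranks within a library, which no factor between libraries can move, showed the same exchange. Cebpb, Spi1, Ybx1, Atf4, Litaf, Atf5, Id2, Bhlhe40, Hmga1b and Nfil3 were the 10 with the highest mean FPKM with PBS, and the same 10 led with NP@M. In NP-D@M the 10 highest were Ybx1, Cers2, Hmga1b, Glmp, Atf5, Hmga1, Ybx3, Usf2, Mbd3 and Atf6b, and NP-D@MP had the same 10. PBS and NP-D@MP had 3 of 10 in common. Ybx1 was at rank 1 in all 6 libraries with D and at rank 2 to 10 without. Bhlhe40 was at rank 3 to 9 without D and 70 to 109 with it, and Klf13 at 13 to 33 and 155 to 268. Litaf, which encodes a membrane-bound lysosomal protein, was at 1 to 7 and 11 to 19. Usf2 was at 33 to 77 without D and at 8 to 9 with it.

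Most families of relatives went one way, and some were split. Grouping genes of 1 class by their symbol stem gave 59 families of at least 2 members (188 genes). In 34 families (101 genes) every member was called lower in both comparisons with D, in 3 every member higher, and in 13 at least 1 member went each way. Of all genes described here, 81.0% were called lower in both and 11.4% higher in both. Many families would be lower whole from that share alone. Whether relatives went together more often than it gives was not tested. The ratio of 2 genes' FPKM within a library does not depend on library scaling, and in the 13 families it was taken between the most abundant gene of each direction, where both had more than 3 reads. Usf2 over Usf1, E-box factors that dimerize with each other, was 1.34 to 2.22 without D and 96.9 to 412 with D, the latter over the 3 libraries with enough Usf1 reads. Usf1 itself had 1 to 21 reads in the libraries with D and 485 to 1005 without. Foxo4 over Foxo3, forkhead factors held back by AKT signalling, was 0.126 to 0.450 without D and 7.40 to 22.3 with D (5 libraries with D). E2f1 over E2f4 was 0.232 to 0.370 without D and 3.01 to 5.73 with D. Elk3 over Elk4, ETS partners of SRF, was 0.773 to 3.06 without D and 29.9 to 151 with D, with 6 to 27 Elk4 reads with D. Mbd3 over Mbd1 was 1.29 to 5.14 without D and 87.9 to 332 with D. Smarcc2 over Smarcc1, alternative subunits of the BAF remodelling complex, was 2.81 to 4.75 without D and 32.9 to 77.2 with D. Since each pair sets a gene called higher with D over one called lower, its direction follows from the choice, and the ratios give the size alone.

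Further pairs of relatives were chosen after their values were seen. Atf6b over Atf6, membrane-bound factors of the unfolded protein response, was 0.652 to 6.83 without D and 26.5 to 45.7 with D. Mxi1 over Mxd1, 2 MAX partners, was 0.289 to 0.450 without D and 7.26 to 23.2 with D, and Mxi1 itself stood at 7.99, 8.43 and 9.32 FPKM with NP@M and 11.7, 13.5 and 13.1 with NP-D@M, with -1.46 on the scale of read totals. Atf5 over Atf4 was 0.218 to 0.850 without D and 13.4 to 42.5 with D. Cers2 over Cers6, synthases of ceramides of different chain length, was 1.41 to 6.30 without D and 55.2 to 107 with D. Thra over Rara was 0.122 to 0.245 without D and 9.92 to 26.3 with D. Libraries without D that lay low in Atf6b over Atf6 and Cers2 over Cers6 were the 2 that stood apart, PBS replicate 3 and NP@M replicate 2, at 0.652 and 1.09 for the first pair.

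**Figure D4:**
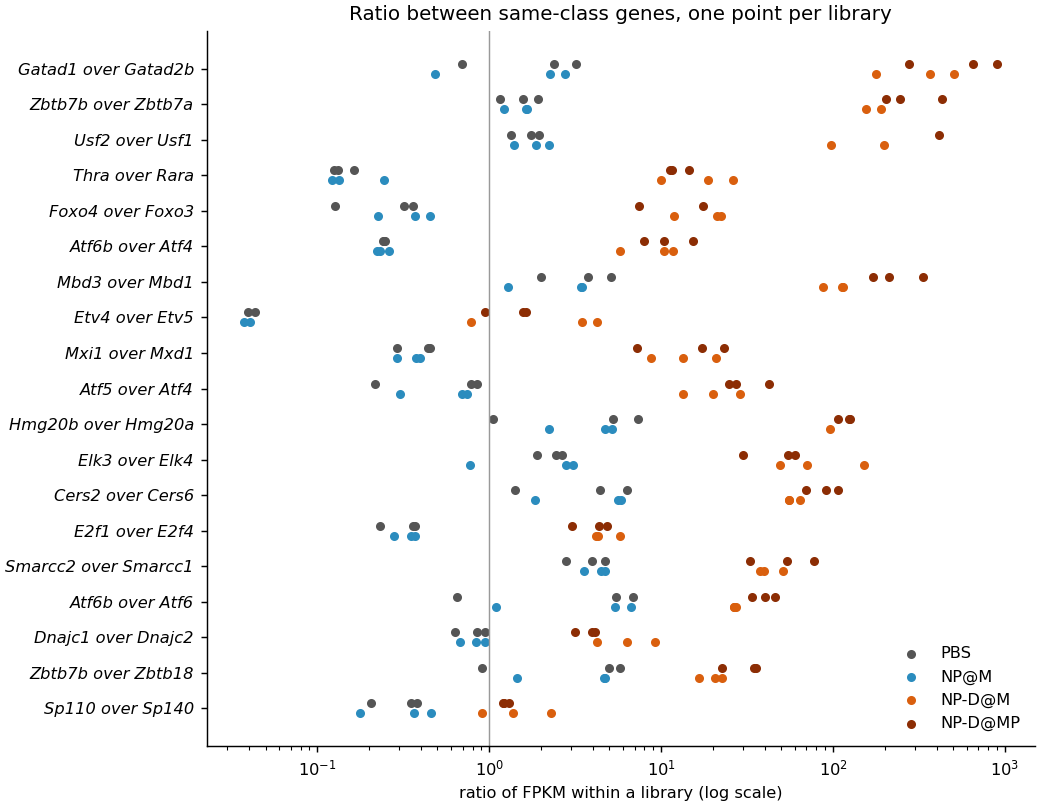
Ratio of FPKM between 2 genes of 1 class within each library (log scale), for 19 pairs ordered by the change of the median. Points are libraries with more than 3 reads of both genes, coloured by group. Orange and brown points are libraries with D, grey and blue points those without. The pairs were picked for opposite directions or after their values were seen, so the side is fixed by the choice, and the distance is what the plot shows.

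Families that fell whole included the 8 Klf, 8 Arid, 6 Zscan and 5 Zkscan genes, the 5 Smad genes, the 4 Maf genes and the 3 Runx genes. Families with every member higher on the deposited scale were Ybx (2), Hmga (2) and the Gm14325 copies (3), and the latter families hold near-identical copies. Of the 16 Zbtb genes 15 were called lower in both, and Zbtb7b, a factor of helper T cell fate, was higher, at 24.7, 22.9 and 5.81 FPKM with PBS and 49.2, 47.8 and 64.5 with NP-D@MP, and at -0.40 with read totals.

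Gene length and level were compared as descriptions. The transcript length in the table had a median of 5656 bases over the 255 genes lower in both comparisons and 3164 over the 36 higher in both. All tested protein-coding genes showed a similar gap, with 5126 and 3096 bases. With all tested genes split into 3 equal parts by length, the shortest part held 47 of the 315. Of these, 63.8% had a negative log2 fold change in NP-D@M against NP@M, against 23.6% of all tested genes of that part. In the longest part these were 92.7% and 70.6%. Split by mean level, the top part held 46 of the 315, with 39.1% negative against 16.9% of all tested genes there. The bottom part held 151, with 94.0% against 72.5%.

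Promoters of RefSeq, 300 bases from 250 before to 50 after the start, matched 252 of the 315 genes by symbol. A GC box (GGGCGG, either strand) was present in 73.0% of 204 promoters of genes lower in both comparisons and in 54.8% of 31 of genes higher in both. All tested protein-coding genes had it in 66.4%, and all 27025 promoters in 35.9%. Among all tested protein-coding genes the gap ran the same way, with 69.8% of those lower in both and 63.3% of those higher in both. A CCAAT box was present in 37.3% and 45.2%, against 38.3% of all tested protein-coding genes and 37.9% of all promoters. TATAAA was found in 4.41% and 3.23%, against 6.82% and 14.2% in the same order, and the E-box CACGTG in 11.8% and 12.9%, against 10.8% and 7.24%. A letter match is no binding site, and no test was made of these shares.

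The value threshold was passed narrowly by few. Genes at 1 FPKM or more in exactly 3 libraries numbered 8, and 76 were at 1 or more in all 12. Among the former, Nr2c2, an orphan nuclear receptor, had group means of 1.40, 1.43, 0.0512 and 0.0272 FPKM in the order PBS, NP@M, then NP-D@M, then NP-D@MP. Creb1, the CREB factor itself, was at 1 or more in 2 libraries and so lay just outside, with means of 1.09, 1.26, 0.1197 and 0.109 FPKM in the same order.

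Reads from overlapping genes cannot be told apart where strand is not used, and whether the counting used strand is not given in the sources used here. For 25 of the 315 at least 10% of the exonic bases overlap another annotated gene, and the share was largest for Fosl1 (57.2%), Sox4 (54.6%), Nr2f6 (54.4%) and Jund (52.6%). Fosl1, Sox4 and Nr2f6 were called lower in both comparisons with D, and Jund in neither. Besides the genes said above to be chosen after their values were seen, Batf2, Elk4, Fosl1, Gm14325, Gm14410, Hmg20b, Jund, Mbd1, Nr2f6, Rcor1, Sox4, Sp110 and Usf1 lie outside the rule for named genes and were chosen after their values were seen too.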

How the data were processed

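Per the labels, total RNA of 12 libraries was made into libraries with a TruSeq kit. The table the authors deposited gives FPKM, a unit read from the values: multiplied by the deposited gene length, 100% of the values fell within 0.05 of a whole multiple of a constant of their library, and these multiples were taken as reads. Bowtie 0.12.2 and mm8 stand in the submitters' processing notes without a role; how the authors scaled libraries or picked genes is not given in the sources used here. All 315 gene IDs were in GENCODE M21 and 302 had equal coordinates, so positions are on GRCm38.

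Genes at 1 FPKM or more in at least 3 libraries were tested (8615). Log2(FPKM + 1) was fitted with limma 3.58.1 (R 4.3.3; 4 group means over 12 libraries, trend and robust options, 2-sided), with Benjamini-Hochberg adjustment over all tested genes and calls at an adjusted p under 0.05. Reads within a library give counting error only. On simulated counts of NP-D@M against NP@M with 8794 genes, 70% of 100 genes changed 2-fold and 100% of 100 changed 4-fold were recovered, with 12 false calls. The simulated libraries shared a common mean profile with few changed genes and were scaled by read totals. These rates need not hold for the data, where most genes were called with D and scaling differed between groups. As a check on the recovered reads, voom called 755 genes higher and 5270 lower in NP-D@M against NP@M.

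Alternatives were quantile normalization, equal medians, read totals, 3 other filters, a pseudocount of 0.1, limma without trend and robust, voom, the 6 libraries compared alone, leaving out PBS replicate 3 and NP@M replicate 2 together, and leaving out each library. Members, role lists and the rule for named genes were chosen with earlier results of these data known. Genes named in the text are, per comparison and direction, the up to 8 called genes of largest change whose groups do not overlap and whose higher mean is 5 FPKM or more. Added to these are the 2 of highest level in each class of at least 5, the 10 highest in each group, and up to 4 of highest level in each role list. Tables and plots were made with Python 3.11.15, pandas 2.3.3, numpy 2.4.6 and matplotlib 3.10.9.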

Additional observations from a re-analysis of the deposited data

How the results depend on the processing

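The 315 genes had a negative median in both comparisons with D under every alternative run, and more of them were called lower than higher. Values are given for NP-D@M against NP@M first and NP-D@MP against PBS second. With a filter of 5 FPKM in 3 libraries, 118 and 120 genes were called, 93 and 92 lower and 25 and 28 higher. With a mean of at least 5 FPKM these were 68 and 71, 45 and 44, and 23 and 27. Both filters leave fewer genes to test. Read totals left 6 and 6 called higher and voom 6 and 5. The medians were -1.96 and -1.87 and -1.14 and -1.22 under the same filters, -1.15 and -1.11 with equal medians, -0.949 and -0.924 with quantile normalization, -2.84 and -2.63 with a pseudocount of 0.1, -2.55 and -2.56 with read totals and -5.35 and -5.13 with voom. Leaving out PBS replicate 3 and NP@M replicate 2 together gave -1.28 and -1.27, and leaving out 1 library -1.39 to -1.28 and -1.40 to -1.27. For NP-D@MP against NP-D@M the median was 0.0818 and 0.182 under the filters, 0.121 with the pseudocount of 0.1 and 0.0807 with voom, and for NP@M against PBS 0.0600 with voom. Among classes, E2F lay above all tested genes with quantile normalization in NP-D@M against NP@M (0.0115), and MBD with a mean of at least 5 FPKM (0.778 and 1.29). Among genes given with a fold change, signs turned in NP-D@M against NP@M for Atf5 (-0.31 with quantile normalization, -0.50 with read totals, -0.49 with voom), E2f1 (-0.28 and -0.31 with read totals and voom) and Tfdp1 (-0.94 and -1.0). Where a scale changed a value, the cause was not tested. No paired analysis was possible because the labels number the libraries in 1 series and give no replicate numbers that groups share (those used here follow the order of the records). Reads behind genes under 1 FPKM with D are few, so their fold changes are bounded by depth.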

Other observations

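The 149 classed genes under the value threshold, left out of all tests, were low throughout, with a median highest library of 0.716 FPKM. On the deposited scale both group means with D lay under both without in 126 of them, and in 16 both lay over. The same count over the other genes under the threshold was not made, so these numbers stand without a background. Of the 149, 17 had no read in the 6 libraries with D and 1 had none in the other 6. Id3, which like Id2 keeps bHLH proteins off DNA, stood at 0.146, 0.278 and 0.618 FPKM with PBS, 0.0158, 0.175 and 0.0445 with NP@M, 2.39, 0.285 and 0.944 with NP-D@M and 0.383, 0.891 and 1.28 with NP-D@MP. On the deposited scale its means were higher with D, while Id2 was called lower. Recovered reads of Id3 summed to 63 with PBS, 15 with NP@M, 56 with NP-D@M and 37 with NP-D@MP. Zkscan1, a zinc finger gene, stood at 0.796, 0.823 and 2.11 FPKM with PBS and 0, 0 and 0.0149 with NP-D@MP. Both were chosen after their values were seen.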
